A study of Mus musculus with 12 samples.

Results

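Aminoacyl-tRNA synthetases are the enzymes that load each amino acid onto its transfer RNA. They were taken from the count table by name: a one-letter amino acid code followed by "ars", with or without a final digit, or *Farsa*, *Farsb*, *Eprs* or *Ears2*, with at least 10 counts in every library. Of 55471 genes, 37 carried such a name and all 37 passed the count minimum. A total of 20 were counted as cytosolic and 17, those whose names end in 2, as mitochondrial. *Gars*, *Kars* and *Qars* were counted as cytosolic by this rule, although the first and second also encode the enzyme of the mitochondria and *Qars* has no mitochondrial counterpart.

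The 37 genes were described in dendritic cells (DCs), which develop when mouse bone marrow is cultured in GM-CSF, a myeloid growth factor. The bone marrow came from female C57BL/6 mice. It received a retroviral short hairpin RNA, aimed either at firefly luciferase, the control called shControl, or at *Ppargc1b*, which encodes the transcriptional co-activator PGC-1β (sh*Ppargc1b*). The vector also carried human CD8, by which transduced cells were sorted. They were left unstimulated or received interferon-β (IFN-β) for 6 h, which gave 4 groups of 3 libraries: shControl and sh*Ppargc1b*, each unstimulated and with IFN-β. The hairpin lowers *Ppargc1b* and does not delete it, all 4 groups carry the vector and a hairpin, and the labels do not say whether the 3 libraries of a group came from separate cultures or animals, so p-values measure the spread between libraries only.

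Libraries held 49919648 to 77726101 counts. *Ppargc1b* was at 34.5 ± 1.94 CPM (counts scaled to library size; SD, n = 3) in unstimulated shControl and at 19.4 ± 0.851 CPM in unstimulated sh*Ppargc1b* cells, and at 27.8 ± 3.93 and 18.7 ± 2.83 CPM with IFN-β (adjusted p = 3.25e-05 and 0.000945). Of 16 interferon-stimulated genes used to check the treatment, 15 rose with IFN-β in both shControl and sh*Ppargc1b* cells, with a median log2 fold change over the list of 4.29 and 3.76. In bulk RNA, fewer cells of a type and less RNA per cell cannot be told apart.

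The cytosol and the mitochondrion each make protein on their own ribosomes with their own tRNAs. Most amino acids therefore have a pair of synthetase genes, and both enzymes are encoded in the nucleus. In the cytosol, the synthetases for arginine, aspartate, glutamate, proline, glutamine, isoleucine, leucine, lysine and methionine assemble on scaffold proteins into the multisynthetase complex. Genes of cytosolic synthetases are known targets of ATF4, the transcription factor of amino acid shortage, and *Wars*, which encodes tryptophanyl-tRNA synthetase, is known as an interferon-inducible gene.

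The RefSeq promoter table (GRCm38.p6, 250 bases before to 50 after each start) held 27 of the 37 genes, 13 cytosolic and 14 mitochondrial, and *Wars* was not among them. Motifs were searched on both strands. The C/EBP-ATF response element, TGATGNAA, through which ATF4 binds with C/EBP partners, was found in 5 genes, and all 5 were cytosolic. It is present in 3.97% of 32851 promoters. Stretches of 30 bases around 1 match of each gene are printed with the match in capitals, 5′ to 3′ on the strand of the gene, since this motif was found in 1 class alone. They lie at chr8:111033840-111033869 for *Aars*, chr6:55037960-55037989 for *Gars*, chr13:49682126-49682155 for *Iars*, chr15:11399655-11399684 (minus strand) for *Tars* and chr4:129189895-129189924 for *Yars*.
Aars: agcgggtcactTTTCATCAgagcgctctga
Gars: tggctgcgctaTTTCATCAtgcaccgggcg
Iars: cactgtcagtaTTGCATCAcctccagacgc
Tars: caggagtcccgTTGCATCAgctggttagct
Yars: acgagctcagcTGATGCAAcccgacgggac

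The core site of nuclear respiratory factor 1, GCATGCGC, a motif of genes of mitochondrial biogenesis, was found in 3 genes, and all 3 were mitochondrial. It is present in 2.71% of promoters. The matches lie in chr4:34614895-34614924 (*Rars2*), chr17:35667620-35667649 and chr17:35667594-35667623 (both *Vars2*, minus strand) and chr3:99141015-99141044 (*Wars2*).
Rars2: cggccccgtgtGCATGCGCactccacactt
Vars2, first match: gagtcttttacGCATGCGCctgcgtgtccc
Vars2, second match: tccccgcccacGCATGCGCgcgcacctcgc
Wars2: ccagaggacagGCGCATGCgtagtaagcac

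No test of a difference between the classes was made for any motif. The gamma-activated sequence, TTCNNNGAA, was in *Aars*, *Kars* and *Nars2* (8.3% of all promoters), the core of the interferon-stimulated response element, TTTCNNTTT, in *Qars* (10.55%), and the ETS motif of GABPA, CCGGAAGT, in *Farsa*, *Mars1* and *Rars2* (3.89%). The element of estrogen-related receptors, TCAAGGTCA, had 0 matches in the promoters of these 27 genes (0.42% of all promoters). A match is a string of letters, and binding was not measured.

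Levels of different genes were compared as CPM per kilobase of exon, averaged over the 12 libraries, with the exons of all transcripts joined. In each of 18 pairs of a cytosolic and a mitochondrial gene for the same amino acid, the cytosolic gene had the higher level. *Nars*, the cytosolic asparaginyl-tRNA synthetase, was the highest of all at 21.1 CPM per kb, followed by *Rars* at 18.2 and *Wars* at 16.2, and *Yars* was the lowest cytosolic gene at 2.60. *Iars2*, the mitochondrial isoleucyl-tRNA synthetase, led its class at 6.62 CPM per kb, and *Mars2*, the mitochondrial methionyl-tRNA synthetase, was lowest at 0.588. The closest pair was *Yars* and *Yars2* (2.60 and 2.5), and *Farsa* and *Fars2* were also near each other (3.38 and 3.20). This order depends on the length used. Per kilobase of the longest transcript, the cytosolic gene was higher in 17 of 18 pairs, since *Fars2* (5.46) lay above *Farsa* (4.59), which was then the lowest cytosolic gene. *Nars*, *Rars*, *Iars2* and *Mars2* kept their places, while *Qars* (21.4), *Kars* (20.4) and others came before *Wars* (19.4), and *Yars* and *Yars2* stood at 5.31 and 2.80. Single libraries held 77 to 4804 counts for a mitochondrial gene and 502 to 10781 for a cytosolic one, and the mitochondrial fold changes had larger standard errors (median SE of 0.10 against 0.06 on the log2 scale).

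**Figure D1:**
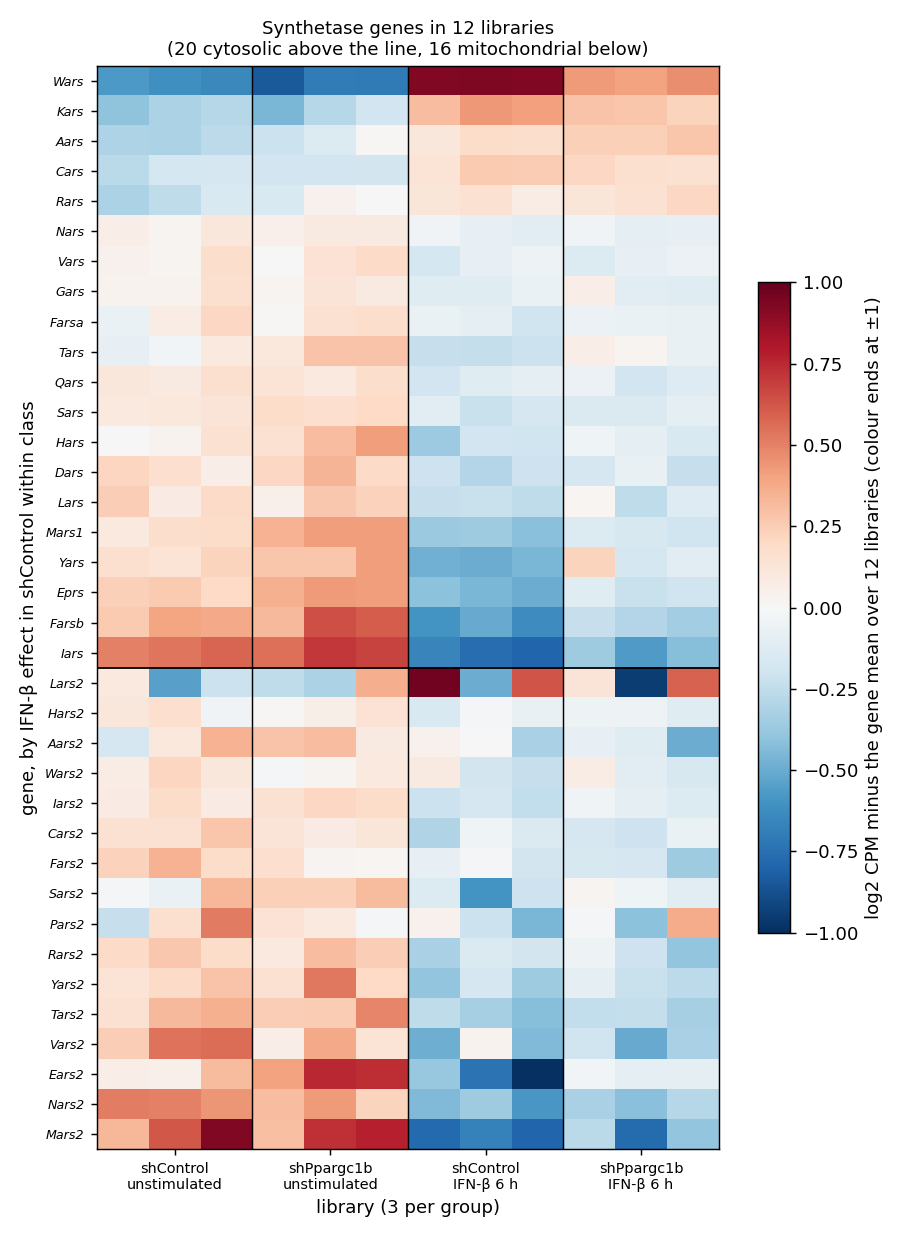
Each row is 1 of 36 synthetase genes and each column 1 library. Colour gives log2 CPM minus the mean of that gene over the 12 libraries, with the colour range ending at -1 and 1. Genes are ordered within the cytosolic (above the line) and mitochondrial class by the IFN-β effect in shControl cells, from *Wars* (1.54) to *Iars* (-1.28) and from *Lars2* (0.68) to *Mars2* (-1.39). Most rows are redder in the 6 unstimulated libraries, the top 5 cytosolic rows are redder with IFN-β, and *Lars2* varies within groups.

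The IFN-β response was examined first in shControl cells. IFN-β changed all 20 cytosolic genes, 5 of them upward and 15 downward, and lowered 11 of 17 mitochondrial genes (edgeR's quasi-likelihood test, adjusted p under 0.05). Over all genes tested, 23.7% rose and 24.6% fell. In this fit 0 mitochondrial genes rose past the threshold, as in DESeq2 and limma-voom, and 0 had an unadjusted p under 0.05 in that direction. *Lars2* did pass upward under 3 alternatives, which are given with its values. The median log2 fold change was -0.24 for the cytosolic and -0.39 for the mitochondrial class, against -0.03 for all genes tested. The direction of calls depends on the scaling here: with library totals in place of TMM factors, the median of all genes moved to -0.27 and the share of calls that were higher fell from 49.0% to 23.9%.

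*Wars* (ENSMUSG00000021266, chromosome 12, 108860030 to 108894174) rose most. It was at 33.3, 32.5 and 31.8 CPM in unstimulated shControl libraries and at 94.0, 94.7 and 94.3 CPM with IFN-β, a 2.90-fold rise (log2 fold change 1.54 ± 0.04 SE, adjusted p = 1.49e-13). The 3 treated libraries lay close together and far above the untreated ones. *Kars* (ENSMUSG00000031948, chromosome 8, 111993443 to 112011323), the lysyl-tRNA synthetase of both compartments, went from 36.4, 38.6 and 39.5 CPM to 59.6, 64.9 and 63.8 CPM (0.72 ± 0.06, adjusted p = 7.75e-08). The other rises were in *Aars* (0.46), *Cars* (0.42) and *Rars* (0.36), the alanyl-, cysteinyl- and arginyl-tRNA synthetases. The *Rars* rise was lost with library totals (0.12, adjusted p = 0.0795).

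The largest cytosolic fall was in *Iars* (ENSMUSG00000037851, chromosome 13, 49682100 to 49734267), the isoleucyl-tRNA synthetase. It was at 76.5, 78.1 and 80.7 CPM without IFN-β and at 34.0, 31.8 and 31.1 CPM with it, 0.411 of the unstimulated level (-1.28 ± 0.06, adjusted p = 4.45e-11). *Farsb* (ENSMUSG00000026245, chromosome 1, 78417975 to 78488897) encodes the β subunit of phenylalanyl-tRNA synthetase. It went from 36.2, 39.6 and 39.2 CPM to 19.9, 21.3 and 19.5 CPM (-0.92 ± 0.08, adjusted p = 6.11e-08), while *Farsa*, which encodes the α subunit, changed by -0.20 (adjusted p = 0.0426). Neither *Iars* nor *Farsb* overlapped between groups, and the *Farsa* call was lost under 12 of 20 alternatives. *Eprs* (-0.68), the fused glutamyl-prolyl-tRNA synthetase, *Yars* (-0.65) and *Mars1* (-0.54) followed, and the remaining 9 falls ranged from *Lars* (-0.42) to *Nars* (-0.14). *Nars*, the most abundant per kilobase, moved from 96.2, 93.4 and 99.3 to 89.5, 86.6 and 85.4 CPM, a small fall with no overlap (adjusted p = 0.00492). Leaving out 1 library ended the calls of *Nars* (IFN-β replicate 3, adjusted p = 0.0501), *Gars* (IFN-β replicate 1 or 2, at most 0.0772) and *Vars* (IFN-β replicate 1 or 2 or unstimulated replicate 3, at most 0.148), all of shControl.

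Among mitochondrial genes, *Mars2* (ENSMUSG00000046994, chromosome 1, 55237177 to 55248470) fell most, from 7.54, 9.22 and 11.4 CPM to 3.5, 3.76 and 3.47 CPM (-1.39 ± 0.16, adjusted p = 3.82e-06). The untreated libraries were spread widely and all lay above the treated ones. *Nars2* (ENSMUSG00000018995, chromosome 7, 96951505 to 97064758), the mitochondrial asparaginyl-tRNA synthetase, fell from 15, 14.9 and 14.3 CPM to 7.73, 8.24 and 7.02 CPM (-0.94 ± 0.08, adjusted p = 6.82e-08). *Ears2* (-0.85), *Vars2* (-0.74), *Tars2* (-0.61) and *Yars2* (-0.51) were next, followed by *Rars2*, *Sars2*, *Cars2*, *Fars2* and *Iars2* (-0.43 to -0.32). The *Sars2* call (adjusted p = 0.0463) was lost under 11 of 20 alternatives. *Iars2*, the highest of its class, went from 61.7, 66.2 and 61.9 to 50.4, 52.0 and 49.4 CPM (adjusted p = 1.32e-05). Its exons overlap those of *Rab3gap2* on the opposite strand over 22.9% of their length, and whether STAR counted by strand was not given, so reads there cannot be told apart if it did not.

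Among the 6 mitochondrial genes that did not pass were *Aars2* (-0.20), *Hars2* (-0.16), *Lars2* (0.68), *Pars2* (-0.39) and *Wars2* (-0.24). With library totals *Aars2*, *Hars2*, *Pars2* and *Wars2* passed as lower (adjusted p of 8.15e-05 to 0.0273). *Wars2* also passed with limma-voom (-0.26, adjusted p = 0.0344), and some fits that left out 1 library called *Hars2*, *Pars2* or *Wars2* lower. *Lars2*, the mitochondrial leucyl-tRNA synthetase, is named here because of its spread, which was seen in the data. It was at 29.8, 19.1 and 24.0 CPM in unstimulated shControl and at 54.2, 19.7 and 43.1 CPM with IFN-β, and at 23.3, 22.4 and 35.9 and then 30.5, 14.4 and 41.8 CPM in sh*Ppargc1b* cells. The groups overlapped in every comparison. Its SD of log2 CPM within groups was 0.602, against 0.0344 to 0.294 in the other 36 genes, and its log2 fold change in shControl cells carried an SE of 0.35. The second library was the lowest of each group, and these 4 libraries come from 1 run of consecutive library codes, of which each run holds 1 library of every group. With a block for these runs *Lars2* passed upward in shControl cells (0.60, adjusted p = 0.0192), as it did with all genes of at least 1 count (0.67, adjusted p = 4.01e-21) and without shControl IFN-β replicate 2 (1.02, adjusted p = 0.0175). The p of 4.01e-21 stands beside overlapping libraries, so it does not measure their spread and is not taken as support.

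**Figure D2:**
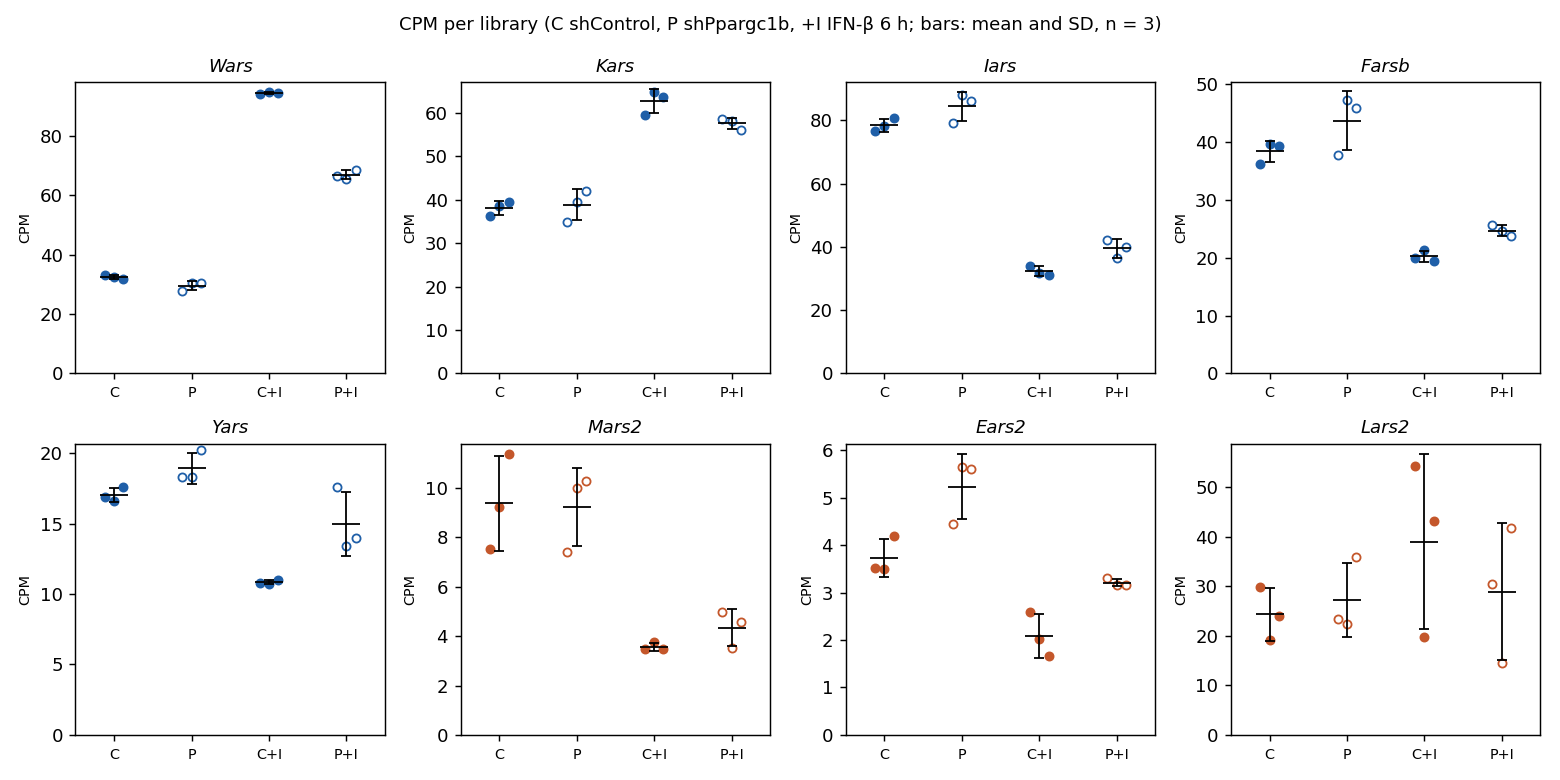
Each point is the CPM of 1 library for 8 synthetase genes, cytosolic in blue and mitochondrial in orange, filled for shControl and open for sh*Ppargc1b*, with the mean and SD of 3 libraries. The vertical axes start at 0 and differ between panels. *Wars* with IFN-β lies near 94 CPM in shControl and between 65.6 and 68.6 CPM in sh*Ppargc1b* cells. *Iars*, *Farsb* and *Mars2* fall with IFN-β, *Ears2* is higher in sh*Ppargc1b* cells in both treatments, and *Lars2* scatters from 14.4 to 54.2 CPM.

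In sh*Ppargc1b* cells, IFN-β raised the same 5 cytosolic genes and lowered 13 cytosolic and 11 mitochondrial genes. The shares over all genes were 21.4% higher and 21.2% lower, and the class medians were -0.24 and -0.31 (-0.02 over all genes). Library totals moved the median of all genes to -0.22 and the share of calls that were higher from 50.2% to 23.7%. *Wars* went from 27.7, 30.5 and 30.4 to 66.5, 65.6 and 68.6 CPM (1.18 ± 0.04, adjusted p = 5.11e-12). *Kars* went from 35.0, 39.5 and 42.1 to 58.6, 58.2 and 56.1 CPM (0.57, adjusted p = 1.60e-06). *Iars* fell from 79.1, 88.1 and 86.0 to 42.2, 36.4 and 40.0 CPM (-1.10, adjusted p = 3.74e-10). In none of these did the groups overlap. *Farsb* fell by 0.83 on the log2 scale, from 37.8, 47.3 and 45.9 to 25.7, 24.6 and 23.7 CPM. *Mars2* changed by -1.09, from 7.40, 9.99 and 10.3 to 4.97, 3.52 and 4.56 CPM. *Ears2* (ENSMUSG00000030871, chromosome 7, 122037213 to 122067263), the mitochondrial glutamyl-tRNA synthetase, changed by -0.71, from 4.44, 5.66 and 5.61 to 3.30, 3.17 and 3.17 CPM. All 3 fell without overlap between treated and untreated libraries. Most genes given by library were picked as the largest changes past the threshold, so a lack of overlap is not further support. The share of all genes without overlap is not given here. The comparisons in shControl and sh*Ppargc1b* cells share no library: 18 of 20 cytosolic and 10 of 17 mitochondrial genes passed in both, each in the same direction in both. The share of all genes that passed in both is not given here, so these counts have no background beside them. *Aars2* passed in sh*Ppargc1b* cells only (-0.45), while *Farsa*, *Gars* and *Sars2* passed in shControl only, and for none of the 4 did the difference between the effects pass its test. The *Aars2* call was lost without unstimulated replicate 1 or 2 or IFN-β replicate 3 of sh*Ppargc1b* (adjusted p of at most 0.151), that of *Vars2* without unstimulated replicate 2 (0.0530), and that of *Vars* without unstimulated replicate 2 or 3 or IFN-β replicate 1 (at most 0.0754). The *Rars* rise (0.19) changed sign with library totals (-0.01, adjusted p = 0.900).

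**Figure D3:**
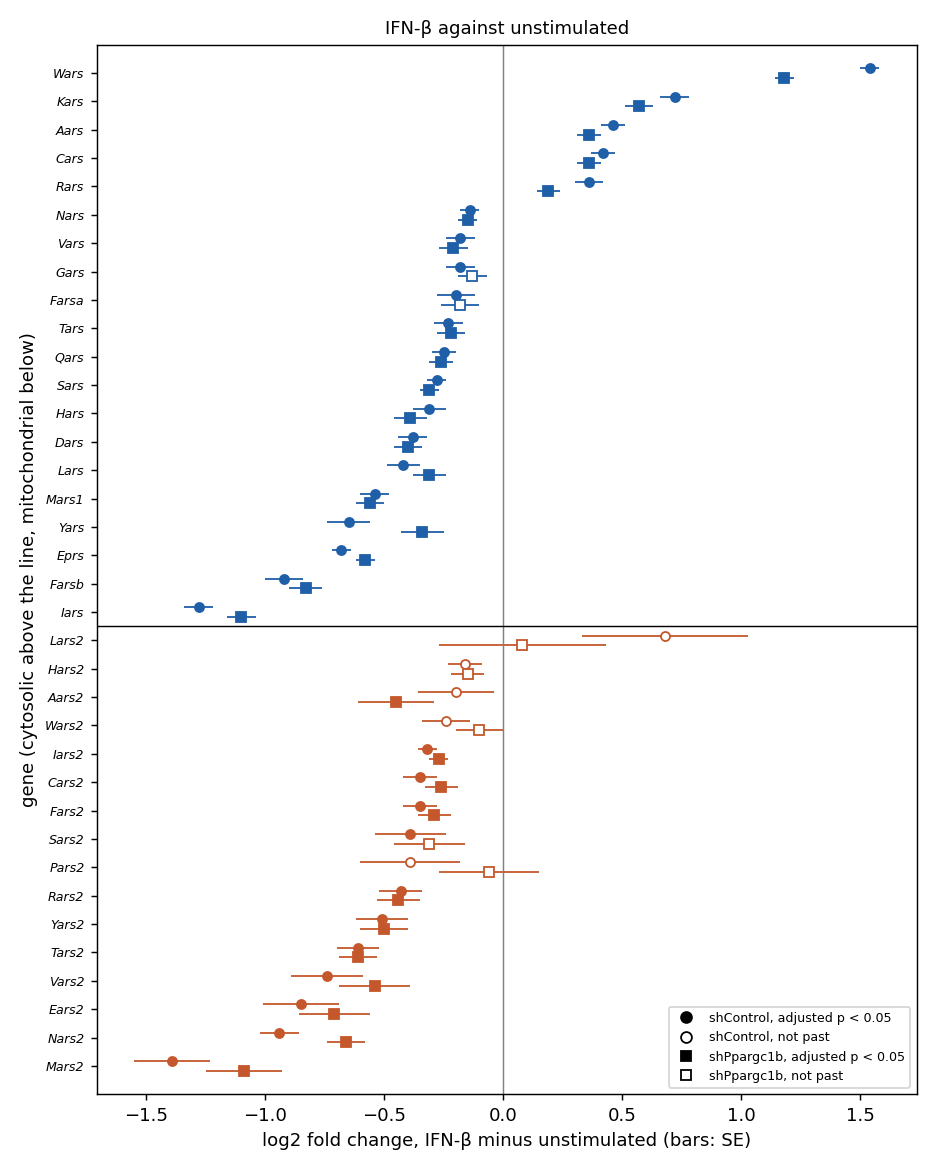
Points give the log2 fold change of each gene, IFN-β minus unstimulated, with its SE, in shControl (circles) and sh*Ppargc1b* cells (squares). Filled points passed an adjusted p of 0.05. Cytosolic genes, in blue above the line, run from 1.54 (*Wars*) to -1.28 (*Iars*) in shControl, and no mitochondrial gene, in orange, passed upward in this fit.

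The test of the difference between the IFN-β effects, which is also the difference between the knockdown effects, was passed by 1 synthetase gene, *Wars*. Its rise was smaller in sh*Ppargc1b* than in shControl cells by 0.36 on the log2 scale (interaction -0.36 ± 0.06 SE, adjusted p = 0.0158). Over all genes, the interaction was higher in 0.0603% and lower in 0.669%. Leaving out unstimulated replicate 2 of sh*Ppargc1b* (-0.31, adjusted p = 0.0650), its replicate 3 (-0.32, 0.0682) or unstimulated replicate 3 of shControl (-0.32, 0.0804) ended the call. The adjusted p ranged from 5.65e-05 to 0.0804 across the alternatives. Interactions in the positive direction passed for 0 synthetase genes in edgeR, DESeq2 and limma-voom, and *Iars*, *Yars* and *Nars2* had an unadjusted p under 0.05. The 16 interferon-stimulated genes had interactions of -0.72 to -0.31 with a median of -0.50, of which *Irf7* (-0.72) and *Isg15* (-0.62) passed. In unstimulated cells 8 of these 16 were higher in sh*Ppargc1b* (list median 0.22, 12.4% higher over all genes), while *Wars* was lower (-0.14). With IFN-β 4 of the 16 were lower (list median -0.21, 12.7% lower over all genes).

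The knockdown comparison asks which synthetase genes differ between sh*Ppargc1b* and shControl cells of the same treatment. In unstimulated cells, 7 of 37 were higher and 1 was lower in sh*Ppargc1b* cells, against 12.4% higher and 11.1% lower over all genes. The shares of the synthetases were 18.9% and 2.7%. The 6 higher cytosolic genes were *Mars1* and *Hars* (both 0.24), *Tars* (0.23), *Rars* (0.21), *Aars* (0.18) and *Eprs* (0.17), all small changes. *Mars1* (ENSMUSG00000040354, chromosome 10, 127296221 to 127311786), the methionyl-tRNA synthetase, was at 15.3, 16.2 and 16.3 CPM in shControl and at 18.2, 19.1 and 19.1 CPM in sh*Ppargc1b* libraries, without overlap (adjusted p = 0.00567). *Hars*, the histidyl-tRNA synthetase, was at 29.3, 30.1 and 32.6 CPM and at 32.6, 36.4 and 39.3 CPM, and here the groups touched (adjusted p = 0.0235). *Wars* was the single lower gene (-0.14 ± 0.04, adjusted p = 0.0377), a call lost under 10 of 20 alternatives (0.0237 to 0.329 over all).

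Among mitochondrial genes, *Ears2* alone passed. It was at 3.52, 3.49 and 4.20 CPM in shControl and at 4.44, 5.66 and 5.61 CPM in sh*Ppargc1b* libraries (0.49 ± 0.14 SE, adjusted p = 0.0220), and it held 107 to 406 counts per library over all 12 libraries. The other 16 lay between -0.25 (*Vars2*) and 0.17 (*Lars2* and *Sars2*), with a class median of -0.01 and SE of 0.04 to 0.35. The count of lower mitochondrial genes was 0 in edgeR, DESeq2 and limma-voom, while *Fars2* and *Nars2* had an unadjusted p under 0.05. *Fars2* passed as lower with the block for runs of library codes (-0.19, adjusted p = 0.0276) and without sh*Ppargc1b* unstimulated replicate 1 (-0.24, adjusted p = 0.0467). A total of 7 genes passed upward with all libraries, but 3 without shControl unstimulated replicate 1, 4 without shControl unstimulated replicate 2, and 3 without sh*Ppargc1b* unstimulated replicate 2 or replicate 3. *Ears2* and *Hars* did not pass in any of these 4 fits.

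With IFN-β, again 7 synthetase genes were higher and 1 was lower in sh*Ppargc1b* cells (all genes: 11.5% and 12.7%). *Wars* was lower by 0.50 on the log2 scale (-0.50 ± 0.04, adjusted p = 1.42e-06), at 66.5, 65.6 and 68.6 CPM in sh*Ppargc1b* against 94.0, 94.7 and 94.3 CPM in shControl libraries, and it passed under all 20 alternatives. *Yars* (ENSMUSG00000028811, chromosome 4, 129189760 to 129219607), the tyrosyl-tRNA synthetase, was at 10.8, 10.7 and 11 CPM in shControl and at 17.6, 13.4 and 14.0 CPM in sh*Ppargc1b* libraries (0.46 ± 0.09, adjusted p = 0.00129). The sh*Ppargc1b* libraries spread more and all lay higher. *Iars* (0.29), *Farsb* (0.28), *Eprs* (0.28), *Tars* (0.24) and *Mars1* (0.21) were the other cytosolic genes that rose. *Ears2* was again the one mitochondrial gene, at 2.59, 2.02 and 1.67 CPM in shControl and at 3.30, 3.17 and 3.17 CPM in sh*Ppargc1b* libraries (0.63 ± 0.16, adjusted p = 0.0081), and the call was lost without shControl IFN-β replicate 3 (0.47, adjusted p = 0.0576). Without that library, or without sh*Ppargc1b* IFN-β replicate 1, 4 genes passed upward. *Iars2* did not pass in the reported fit, but it passed as higher under several alternatives. Among them were library totals (0.15, adjusted p = 0.0246) and the block for runs of library codes (0.12, adjusted p = 0.0329). Lower mitochondrial genes numbered 0 in all of edgeR, DESeq2 and limma-voom, and 1 at an unadjusted p under 0.05, while *Lars2* passed as lower with all genes of at least 1 count (-0.42, adjusted p = 2.45e-08). The *Lars2* libraries of these groups overlap, so that p does not measure their spread either.

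The knockdown comparisons with and without IFN-β share no library, and *Eprs*, *Mars1*, *Tars*, *Ears2* (higher) and *Wars* (lower) passed in both. For these too, the share of all genes that passed in both is not given here. Each knockdown comparison shares its shControl libraries with the IFN-β comparison of shControl cells, so they are not independent. The treated shControl libraries are subtracted in the knockdown comparison with IFN-β and added in the IFN-β comparison. The opposite signs of *Eprs*, *Mars1*, *Iars* or *Yars* there are therefore not separate evidence. The unstimulated shControl libraries are subtracted in both the unstimulated knockdown and the IFN-β comparison, which moves both in the same direction. *Ears2* overlaps *Ubfd1* on the opposite strand over 1.7% of its exons and *Mars1* overlaps *Ddit3* over 2.0%. Larger overlaps on the opposite strand had the same limit on telling reads apart. Among them were *Farsb* with *Sgpp2* (9.5% of the member's exons), *Fars2* with *Nrn1* (8.7%) and *Vars2* with *Gm20483* (8.5%). *Hars* with *Hars2* (8.0%) and *Cars2* with *Naxd* (5.8%) followed. *Aars* overlaps *Exosc6* on the same strand over 14.3% of its exons, where strand cannot tell reads apart, and *Exosc6* held 0 counts in all libraries. The exact two-sided permutation p of *Wars* was 0.1 in all 4 comparisons, the smallest that 3 libraries against 3 allow.

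**Figure D4:**
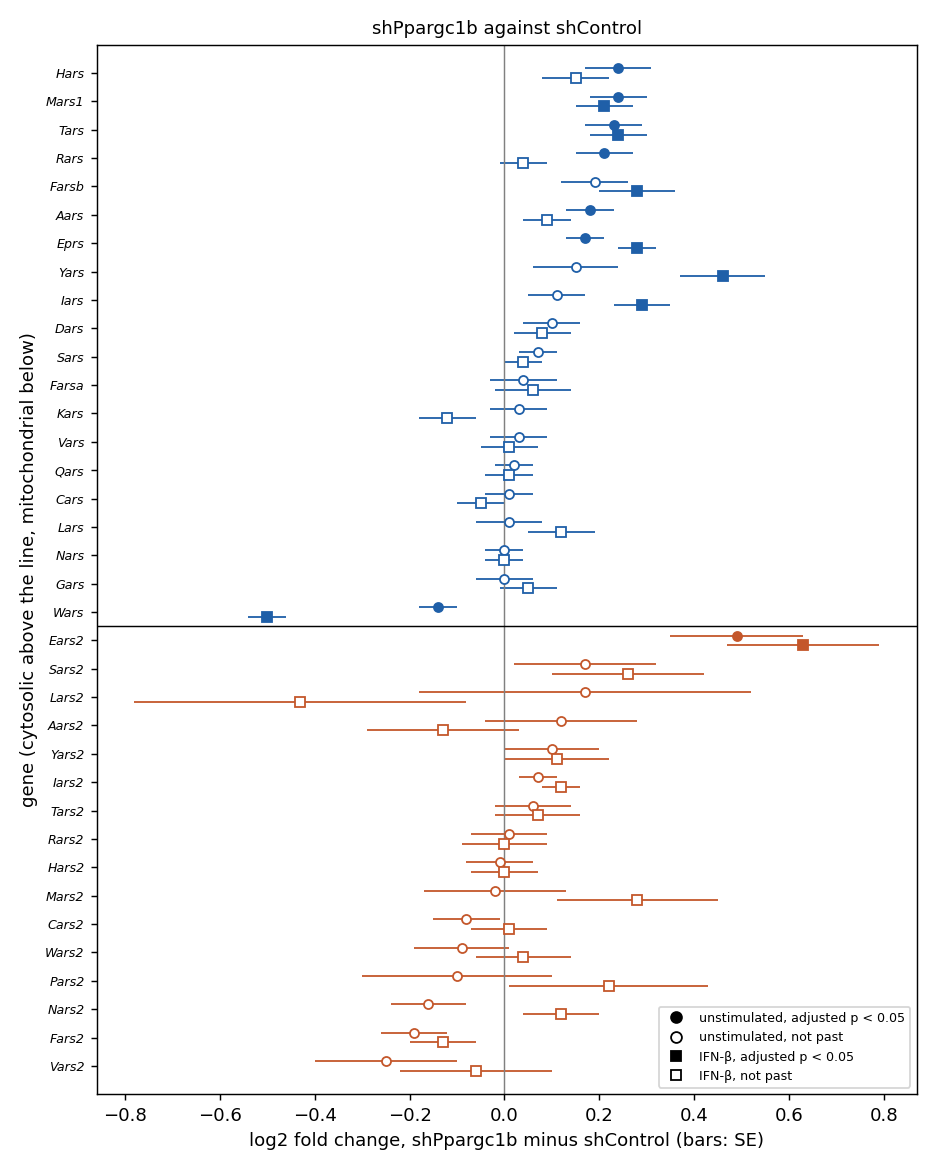
Points give the log2 fold change of each gene, sh*Ppargc1b* minus shControl, with its SE, in unstimulated (circles) and IFN-β-treated cells (squares). Filled points passed an adjusted p of 0.05. *Wars* lies lowest among cytosolic genes (-0.14 and -0.50), and *Ears2* (0.49 and 0.63) is the single filled mitochondrial gene.

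Some markers of culture composition differed with the knockdown and some with IFN-β. Over all genes, 12.4% were higher and 11.1% lower in unstimulated sh*Ppargc1b* cells, and 11.5% and 12.7% with IFN-β. Of 6 dendritic-like markers 4 were higher in sh*Ppargc1b* cells in both treatments. Their summed level was 4270 to 4920 CPM against 3720 to 4360 CPM in unstimulated libraries. With IFN-β it was 4070 to 4740 against 3400 to 4150 CPM, and the ranges overlapped in both treatments. Of 6 macrophage-like markers 3 were lower in both treatments, at 817 to 907 against 1120 to 1260 CPM unstimulated and 865 to 1060 against 1160 to 1330 CPM with IFN-β. Of 5 neutrophil-like markers *S100a8* was higher (0.83 and 0.88), while 3 of the 5 had values below zero in both treatments and the list medians were -0.42 and -0.66. Of 4 proliferation markers *Mki67* was lower in unstimulated cells (-0.53). The lymphocyte-like list summed to at most 0.613 CPM and the erythroid-like list to at most 0.118 CPM in any library. With IFN-β in shControl cells 3 of 6 macrophage-like and 1 of 6 dendritic-like markers were higher. There 1 of 4 proliferation markers was lower (list median -0.54), against 23.7% higher and 24.6% lower over all genes. In sh*Ppargc1b* cells IFN-β raised 3 and 1 of the same lists, and 0 proliferation markers passed (median -0.42, all genes 21.4% higher and 21.2% lower). The part of these differences in the synthetase results was not tested.

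The classes were also compared by library. The median deviation of the mitochondrial genes from their own means, minus that of the cytosolic genes, was 0.06, 0.12 and 0.13 (log2) in unstimulated shControl and -0.03, -0.01 and -0.06 with IFN-β. It was 0.07, 0.08 and -0.01 in unstimulated sh*Ppargc1b* and -0.01, -0.10 and -0.06 with IFN-β. The mitochondrial class was thus lower relative to the cytosolic class in every IFN-β library of shControl than in every unstimulated one, while in sh*Ppargc1b* cells the lowest unstimulated and the highest treated library were at the same value. The gap between the class medians in sh*Ppargc1b* cells (-0.06) went to 0.00 when *Gars*, *Kars* and *Qars* were left out of the cytosolic class. Summed over genes, the mitochondrial class went from 241 ± 2.89 to 204 ± 14.6 CPM in shControl and from 243 ± 10.7 to 199 ± 14.3 CPM in sh*Ppargc1b* cells (SD, n = 3). Without *Lars2* these sums were 217 ± 8 and 165 ± 5.15 CPM, and 216 ± 5.80 and 170 ± 6.01 CPM. The cytosolic sum without *Wars* went from 917 ± 17.9 to 782 ± 3.68 CPM and from 984 ± 40.5 to 834 ± 20.3 CPM.

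Most pairs for the same amino acid had both genes below zero with IFN-β in shControl cells. Among them were glutamate (*Eprs* -0.68 and *Ears2* -0.85), tyrosine (*Yars* -0.65 and *Yars2* -0.51) and serine (*Sars* -0.28 and *Sars2* -0.39). Other pairs did not move alike. In shControl cells with IFN-β the mitochondrial gene had the lower log2 fold change in 11 of 18 pairs. The widest gap in that direction was for tryptophan, with *Wars* at 1.54 and *Wars2* at -0.24, and alanine (0.46 and -0.20), cysteine (0.42 and -0.35) and arginine (0.36 and -0.43) also had the cytosolic gene higher and the mitochondrial gene below zero. For isoleucine the order was reversed, with *Iars* at -1.28 and *Iars2* at -0.32. Methionine had both genes lower, *Mars1* by 0.54 and *Mars2* by 1.39 on the log2 scale.

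**Figure D5:**
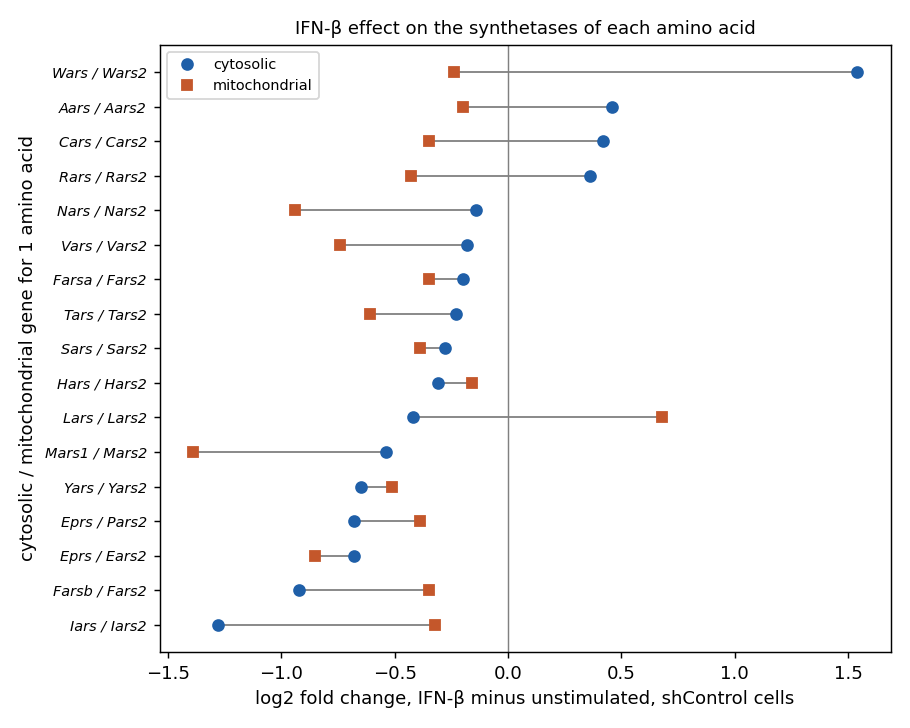
Each line joins the cytosolic (blue circle) and mitochondrial (orange square) synthetase genes of 1 amino acid at their log2 fold changes with IFN-β in shControl cells. *Eprs* serves glutamate and proline and *Fars2* is set beside both *Farsa* and *Farsb*, and 17 of the 18 pairs are drawn. The cytosolic genes of tryptophan, alanine, cysteine and arginine lie right of 0, and *Lars2* (0.68) did not pass its test.

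The genes that work with the synthetases were examined as lists, whose counts stand beside 23.7% higher and 24.6% lower over all genes for IFN-β in shControl cells. A grouping by the multisynthetase complex was chosen after the values were seen: of its 8 synthetase genes *Kars* and *Rars* rose and 6 fell with IFN-β in shControl cells, and of 12 other cytosolic genes 3 rose and 9 fell. All 3 scaffold genes of the complex fell, *Eef1e1* by 1.01, *Aimp2* by 0.67 and *Aimp1* by 0.26 on the log2 scale, and again in sh*Ppargc1b* cells (-0.70, -0.63 and -0.24). *Eef1e1* was also higher in sh*Ppargc1b* than in shControl cells (0.39 in unstimulated and 0.70 in treated cells, adjusted p = 0.0100 and 0.00018).

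Mitochondria have no glutaminyl-tRNA synthetase and make that tRNA by amidation, through the products of *Qrsl1*, *Gatb* and *Gatc*. All 3 fell with IFN-β in shControl (-0.92, -0.61 and -0.45) and in sh*Ppargc1b* cells (-0.54, -0.53 and -0.23), while *Mtfmt*, which formylates the initiator tRNA, did not pass. Of 11 mitochondrial translation factors 7 fell with IFN-β in shControl cells, among them *Tufm* (-0.68), the elongation factor, and *Mrrf* (-0.64), the ribosome recycling factor. Of 16 genes of mitochondrial tRNA processing and modification 10 fell, led by *Qtrt1* (-0.74) and *Prorp* (-0.65), a subunit of mitochondrial RNase P. In the cytosol, 8 of 9 elongation and termination factors fell and *Etf1* rose (0.13), with *Eef2k* (-1.74) and *Abce1* (-0.99) lowest.

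With the knockdown, the mitochondrial translation factors *Guf1* (-0.32 and -0.23, both treatments) and *Tufm* (-0.24, unstimulated) were lower and the other 9 of 11 did not pass in either treatment. These are 18.2% and 9.09% lower, against 11.1% and 12.7% over all genes. Of 9 cytosolic elongation and termination factors 3 were higher and 1 lower in unstimulated cells, and 4 and 0 with IFN-β. Of 16 mitochondrial tRNA processing genes 1 was higher and 0 lower, and 3 and 1 with IFN-β. Over all genes 12.4% and 11.5% were higher. *Tarsl2*, which encodes a threonyl-tRNA synthetase-like protein outside the name rule, was lower in both treatments (-0.80, adjusted p = 7.61e-05, and -0.82, adjusted p = 9.9e-05). Its relative *Tars* was higher in both (0.23 and 0.24). *Esrra*, a nuclear receptor that works with PGC-1β, was lower (-0.21 and -0.34), and *Myc*, a growth transcription factor, was higher (0.39 and 0.87).

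Of 32 genes of the ATF4 response other than synthetases, 10 were higher and 3 lower in unstimulated sh*Ppargc1b* cells (all genes: 12.4% and 11.1%), and 7 and 7 with IFN-β (all genes: 11.5% and 12.7%). *Slc7a5*, an amino acid transporter, rose by 0.68 and 1.04 and *Asns*, asparagine synthetase, by 0.64 in unstimulated cells. *Nupr1* was lower in both treatments (-0.50 and -0.44). *Atf4* itself was higher in unstimulated sh*Ppargc1b* cells (0.18, adjusted p = 0.00381) and did not pass with IFN-β (0.11, adjusted p = 0.0666). With IFN-β in shControl cells 11 of the list rose and 8 fell: *Atf4* rose by 0.36, *Eif2ak2*, the interferon-inducible kinase PKR, by 1.80 and *Mthfd2* by 1.21, and *Shmt2* (-0.95) and *Slc1a5* (-0.93) fell most. The 5 synthetase genes with a C/EBP-ATF match in their promoter did not share a direction there, as *Aars* rose and *Iars*, *Yars*, *Tars* and *Gars* fell.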

How the data were processed

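RNA-seq counts of 12 mouse DC libraries were analysed in 4 groups of 3, assigned from the sample labels. Per the labels and the study's methods, total RNA was depleted of ribosomal RNA (KAPA RNA HyperPrep Kit with RiboErase) and read pairs were trimmed with Trim Galore 0.6.0, mapped to mm10 with STAR 2.7.8a (versions from the submitters' processing notes) and counted per GENCODE gene by STAR. The deposited values were raw counts per gene, without normalization or pooling. STAR's gene counts hold uniquely mapped reads, so reads from identical sequence are lost.

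Counts were analysed in R 4.3.3 with edgeR 4.0.16. Genes passed filterByExpr (minimum count 10, minimum total 15), which kept 18228 of 55471 genes and 99.96% of counts. TMM scaling and a quasi-likelihood model with 1 mean per group were fitted to all 12 libraries, with Benjamini-Hochberg adjustment across the genes tested (threshold 0.05). CPM values were scaled by TMM. The interaction is the knockdown effect with IFN-β minus that without it. The script was tested on simulated data. Alternatives were DESeq2 1.42.0 (Wald test, size factors), library totals, limma 3.58.1 (voom), other count filters, fits to the groups compared alone, a block for consecutive library codes, and leaving out each library. Positions and exon lengths came from GENCODE M21 (GRCm38), promoters from RefSeq (GRCm38.p6).

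The members, lists and tests were chosen with earlier results of these data known. Values in every library were given, in each comparison between 2 groups and each class, for the 2 largest rises and the 2 largest falls past the threshold, and also for *Wars*, for genes past the interaction test and for the highest and lowest level per kilobase in each class. From other lists at most 2 rises and 2 falls per comparison were named, plus *Atf4* and genes needed for context. Marker lists also included mast cell or basophil-like (4 genes) and eosinophil-like (3 genes), of which 0 passed in any comparison by edgeR. Protein sequences were not used here. The values of 1 mitochondrial gene and 1 promoter stretch are not reported here, and that gene is not drawn in the figures.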

Additional observations from a re-analysis of the deposited data

Results flagged for a closer look

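A total of 4 results stood out because the IFN-β effect differed between sh*Ppargc1b* and shControl cells by the interaction test. *Wars* had an interaction of -0.36 (log2). *Slc3a2*, which encodes the heavy chain of amino acid transporters, had an interaction of -0.32 (adjusted p = 0.0206), going from 170 ± 2.68 to 301 ± 10.3 CPM in shControl and from 227 ± 5.51 to 322 ± 14.2 CPM in sh*Ppargc1b* cells (SD, n = 3). The interferon-stimulated genes *Isg15* (-0.62, adjusted p = 0.0489) and *Irf7* (-0.72, adjusted p = 0.0244) were at 9.62 ± 1.56 and 40.7 ± 7.19 CPM in unstimulated shControl and at 13.4 ± 1.83 and 61.5 ± 6.50 CPM in unstimulated sh*Ppargc1b* cells. With IFN-β *Isg15* was at 300 ± 13.7 and 272 ± 11.5 CPM and *Irf7* at 660 ± 35.1 and 607 ± 26.8 CPM.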

How the results depend on the processing

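Counts of synthetase genes that IFN-β raised or lowered stayed within 1.5 times under all 20 alternatives (22 to 28 lower in shControl and 21 to 25 in sh*Ppargc1b* cells when 1 library was left out). Of the reported calls, 25 of 31 and 25 of 29 passed under every alternative for IFN-β, 2 of 8 and 4 of 8 for the knockdown without and with IFN-β, and 0 of 1 for the interaction. The knockdown count of higher genes without IFN-β was 3 to 8 when 1 library was left out and that of lower genes 0 to 1. The latter was 0 with all genes of at least 1 count, with limma-voom and with only the groups compared, and 2 (*Wars* and *Fars2*) with a block for consecutive library codes. With IFN-β the higher count was 4 to 8, and the lower count was 2 with all genes of at least 1 count. The lower interaction count was 2 with all genes of at least 1 count and 0 to 1 when 1 library was left out. The gap between class medians ranged from -0.13 to -0.04 for the knockdown without IFN-β and from 0.02 to 0.10 for the interaction, and without *Gars*, *Kars* and *Qars* it was -0.10 in shControl and 0.00 in sh*Ppargc1b* cells for the IFN-β effect. With library totals *Rars* went to -0.01 for IFN-β in sh*Ppargc1b* cells, since that scaling lowers all treated values. Over all genes, the interaction called 11 higher and 122 lower, against 84 and 365 with DESeq2, 103 and 422 with all genes of at least 1 count, 86 and 339 with the block and 17 and 67 with library totals. Leaving out 1 library gave from 4 higher and 32 lower (shControl unstimulated replicate 3) to 56 and 215 (sh*Ppargc1b* IFN-β replicate 2). With library totals IFN-β in shControl called 2598 genes higher and 8294 lower, against 4312 and 4481, and in sh*Ppargc1b* cells 2340 and 7551, against 3895 and 3865. The other causes were not tested. The labels give no replicate numbers. A block for the 3 runs of consecutive library codes was run in their place and ended no reported call of a synthetase gene. Deviations from the group means correlated across genes by 0.03 to 0.15 within a run, and 12 of 12 libraries correlated best, on average, with their own run. Mitochondrial genes with few counts limit what could be detected.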
